A study of Mus musculus with 12 samples.

Results

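The genes examined here encode the subunits of the 5 complexes of oxidative phosphorylation. They were found by symbol in the deposited expression table and made up 85 of its 23909 genes. The rule took symbols beginning with Ndufa, Ndufb, Ndufc, Ndufs or Ndufv (without the Ndufaf assembly factors), Uqcr, Cox4i, Cox5, Cox6, Cox7, Cox8 or Atp5, and the 4 Sdh genes. By symbol, 38 belonged to complex I, 4 to complex II, 8 to complex III, 18 to complex IV and 17 to complex V. Ndufa4 was counted with complex I because of its symbol, although its product is now assigned to complex IV. Atp5s and Atp5sl are older symbols of genes whose products are not structural parts of complex V. Subunits encoded by mitochondrial DNA, and cytochrome c1 (Cyc1), were outside the rule.

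RNA was sequenced from livers of C57BL/6 mice from the vendors Jackson and Taconic, housed together for 4 weeks, with no other genetic or drug treatment named in the labels. CoTAC libraries came from Taconic mice housed with Jackson mice. TAC libraries came from Taconic mice housed with their own kind. CoJAX libraries came from Jackson mice housed with Taconic mice, and JAX libraries from Jackson mice housed with their own kind. Each group had 3 libraries, 12 in all. The question of the study is the bearing of gut microbes on liver transcripts, and housing lets mice exchange them. The labels do not say that each library came from a separate animal or which mice shared a cage, so p-values measure only the spread between these samples.

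In mitochondria, complexes I and II pass electrons from NADH and succinate to ubiquinone, complex III passes them on to cytochrome c, and complex IV passes them to oxygen. Complexes I, III and IV pump protons, and complex V, the ATP synthase, uses the resulting gradient to make ATP. Most subunits are encoded in the nucleus, and several of those of complex IV have isoforms specific to muscle, lung or testis. Hepatocytes are rich in mitochondria and use this ATP for glucose, urea and protein synthesis. The transcription factors NRF1, GABP and YY1 are known to bind promoters of many subunit genes.

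Promoter sequences were taken from RefSeq on the build GRCm38.p6, from 250 bases before to 50 bases after the gene start. An entry was matched by symbol for 70 of the 85 subunits. Both strands were searched for 3 motifs. The core motif of NRF1 stood in 5 of the 70 promoters (7.1%), against 1.07% of the promoters of all 27025 genes in the RefSeq table. The GABP motif CCGGAAG stood in 16 (22.9%), against 9.93% of all. The YY1 motif stood in 6 (8.6%), against 1.0% of all. At least 1 of the 3 motifs stood in 24 of the subunit promoters. The 3 motifs do not overlap one another in the sequences below. The first 2 sequences are shown because they are the 2 subunit promoters that hold both NRF1 and GABP motifs, and Atp5k and Cox6a1 are among the most abundant subunits. The promoter of Ndufs6, which encodes an iron-sulfur protein of complex I, is shown for its YY1 motif. The promoter of Cox8b, a muscle isoform of complex IV described below, is shown because it holds none of the 3. Capitals mark the motifs. In Atp5k and Cox6a1 the first run of capitals is the NRF1 motif, the run in Ndufs6 is the YY1 motif, and CTTCCGG is the GABP motif on the other strand.
Atp5k promoter, chr5:108434350-108434649, minus strand: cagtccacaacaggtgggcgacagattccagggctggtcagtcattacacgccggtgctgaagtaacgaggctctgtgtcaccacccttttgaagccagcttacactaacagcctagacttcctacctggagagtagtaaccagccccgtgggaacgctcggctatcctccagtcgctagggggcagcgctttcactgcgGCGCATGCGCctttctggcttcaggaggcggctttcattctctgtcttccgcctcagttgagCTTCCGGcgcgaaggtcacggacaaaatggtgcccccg
Cox6a1 promoter, chr5:115348909-115349208, minus strand: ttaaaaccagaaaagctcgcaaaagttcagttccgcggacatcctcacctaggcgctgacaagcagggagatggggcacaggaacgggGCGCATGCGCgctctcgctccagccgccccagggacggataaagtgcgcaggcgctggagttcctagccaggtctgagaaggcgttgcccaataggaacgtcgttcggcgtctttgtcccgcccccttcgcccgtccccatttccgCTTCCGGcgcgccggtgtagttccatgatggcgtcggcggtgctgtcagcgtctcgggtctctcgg
Ndufs6 promoter, chr13:73328433-73328732, minus strand: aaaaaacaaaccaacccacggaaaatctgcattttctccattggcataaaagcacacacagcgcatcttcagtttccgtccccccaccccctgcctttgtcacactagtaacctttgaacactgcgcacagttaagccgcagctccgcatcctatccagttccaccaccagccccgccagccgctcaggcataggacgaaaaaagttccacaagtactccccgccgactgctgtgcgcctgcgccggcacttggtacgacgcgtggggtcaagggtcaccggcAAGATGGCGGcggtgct
Cox8b promoter, chr7:140900397-140900696, minus strand: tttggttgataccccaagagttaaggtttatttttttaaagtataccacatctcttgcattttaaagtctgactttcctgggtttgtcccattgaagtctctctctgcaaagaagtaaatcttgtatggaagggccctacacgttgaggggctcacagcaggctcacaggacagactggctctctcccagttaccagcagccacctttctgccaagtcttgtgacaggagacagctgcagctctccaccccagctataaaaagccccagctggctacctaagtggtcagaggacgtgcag
In Atp5k the NRF1 motif begins 50 bases before the gene start and the GABP motif 12 bases after it. In Cox6a1 the NRF1 motif begins 162 bases and the GABP motif 16 bases before the gene start, and in Ndufs6 the YY1 motif begins 33 bases after it. A motif is a match of letters and says nothing of binding in these livers.

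Values are RPKM, reads mapped to a gene scaled to its length and to the mapped total of the library, as the authors deposited them. Relative sequencing depth was read from the steps between the lowest RPKM values, with JAX 1 set to 1. CoTAC libraries lay at 1.59 to 1.84, TAC libraries at 0.7943 to 1.754, CoJAX libraries at 1.0882 to 1.8788 and JAX libraries at 0.7581 to 1. This corresponds to an estimated 1470000 to 3640000 reads. A single read in a transcript of 500 bases was worth 0.549 to 1.36 RPKM. Alb, the hepatocyte gene of serum albumin, was listed at 511.5 to 1151.6 RPKM in the 12 libraries, and all 8 hepatocyte markers checked were expressed, as the liver label requires. The summed level of these 8 markers was 3071 to 3502 RPKM in CoTAC libraries, 3178 to 5833 RPKM in TAC libraries, 3003 to 4793 RPKM in CoJAX libraries and 4644 to 5779 RPKM in JAX libraries. Alb was lower the deeper the library, from 1151.6 RPKM in JAX 3 to 511.5 RPKM in CoJAX 3. The sums also tended to be lower in deeper libraries, but single markers went different ways. Apob and Cps1 were higher in CoJAX than in JAX, at log2 differences of 1.13 and 0.82 (adjusted p = 0.00593 and 0.007, limma-trend). Ttr was lower, at -0.75 (adjusted p = 0.0485). Of all tested genes, 12.7% were higher and 11.5% lower at an adjusted p under 0.05. Cps1 was also higher in TAC than in JAX, at 0.69 (adjusted p = 0.0367), as were 2.38% of all genes. The part of depth in these values was not tested. Markers of fat were at or near 0 in every library, and those of muscle were low in every library but JAX 2. Stellate cell and fibroblast markers summed to 58.5 to 90.8 RPKM in CoTAC libraries, 71.1 to 131.8 RPKM in TAC libraries, 85.2 to 138.3 RPKM in CoJAX libraries and 132.0 to 152.3 RPKM in JAX libraries. The 4 endothelial markers summed to 10.1 to 30.5 RPKM in CoTAC libraries, 24.1 to 32.8 RPKM in TAC libraries, 26.0 to 31.3 RPKM in CoJAX libraries and 29.9 to 37.5 RPKM in JAX libraries. Their median log2 difference was -0.96 in CoTAC against TAC and -0.87 in CoTAC against CoJAX. In limma-trend 0 of the 4 passed in either, against 0.647% and 0.0663% of all tested genes. At an unadjusted p under 0.05 there were 2 and 3 of the 4, against 24.6% and 10.8% of all tested genes. The part of these cell types in the subunit differences was not tested.

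Most subunit transcripts were abundant in every group. The 85 genes together held 3.74% to 6.18% of all RPKM in a library. On average, 76 of them lay above 40 RPKM, and 68 reached over 25% of the Alb value in their library. Alb itself was lower in deeper libraries, so this share need not give the relative number of transcripts. In complex V the most abundant was Atp5k, which encodes subunit e of the membrane part. Atp5k had 799, 751 and 781 RPKM in CoTAC, 1615, 1217 and 829 in TAC, 1098, 946 and 799 in CoJAX and 1413, 1718 and 1857 in JAX livers. Atp5e, which encodes the small epsilon subunit of the rotor, was next. For Atp5e the values were 529, 519.8 and 561 RPKM in CoTAC, 1142, 837 and 553 RPKM in TAC, 794, 716 and 553 RPKM in CoJAX and 981, 1254 and 1329 RPKM in JAX livers. In both, the 3 CoTAC libraries and the deepest TAC and CoJAX libraries were low, and JAX libraries and TAC 1 were high.

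Complex III followed a like pattern in its small subunits, of which Uqcr11 and Uqcrq encode 2. The CoTAC livers held 558, 503 and 574 RPKM of Uqcr11 and the TAC livers 1090.4, 808 and 583 RPKM, the CoJAX livers 788, 709.5 and 546 RPKM and the JAX livers 1006, 1211 and 1308 RPKM. Uqcrq had 545, 504 and 575 RPKM in CoTAC, 1126, 815 and 558 in TAC, 811, 657 and 523 in CoJAX and 977, 1215 and 1288 in JAX livers. The 3 JAX values lay above all CoJAX and CoTAC values in both genes, while TAC 1 lay within the JAX range.

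In complex IV, Cox6a1 and Cox4i1 encode the widely expressed isoforms of subunits 6a and 4. For Cox6a1 the values were 503, 497 and 528 RPKM in CoTAC, 1024, 749 and 533 RPKM in TAC, 773, 669.9 and 523 RPKM in CoJAX and 926, 1139 and 1178 RPKM in JAX livers. The CoTAC livers held 467, 445 and 499.5 RPKM of Cox4i1 and the TAC livers 931, 683 and 492 RPKM, the CoJAX livers 679, 596 and 458 RPKM and the JAX livers 816, 981 and 1032 RPKM. Among genes named Nduf, Ndufa3, which encodes an accessory protein of the membrane arm of complex I, and Ndufa4 were the most abundant. Ndufa3 had 514, 501 and 581 RPKM in CoTAC, 1016, 744 and 564 in TAC, 774, 631 and 553 in CoJAX and 996, 1169.6 and 1309 in JAX livers. For Ndufa4 the values were 505, 471 and 503 RPKM in CoTAC, 973, 746 and 483 RPKM in TAC, 743, 634 and 492 RPKM in CoJAX and 864, 1025 and 1104 RPKM in JAX livers. Every JAX library again lay above every CoJAX and CoTAC library.

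**Figure D1:**
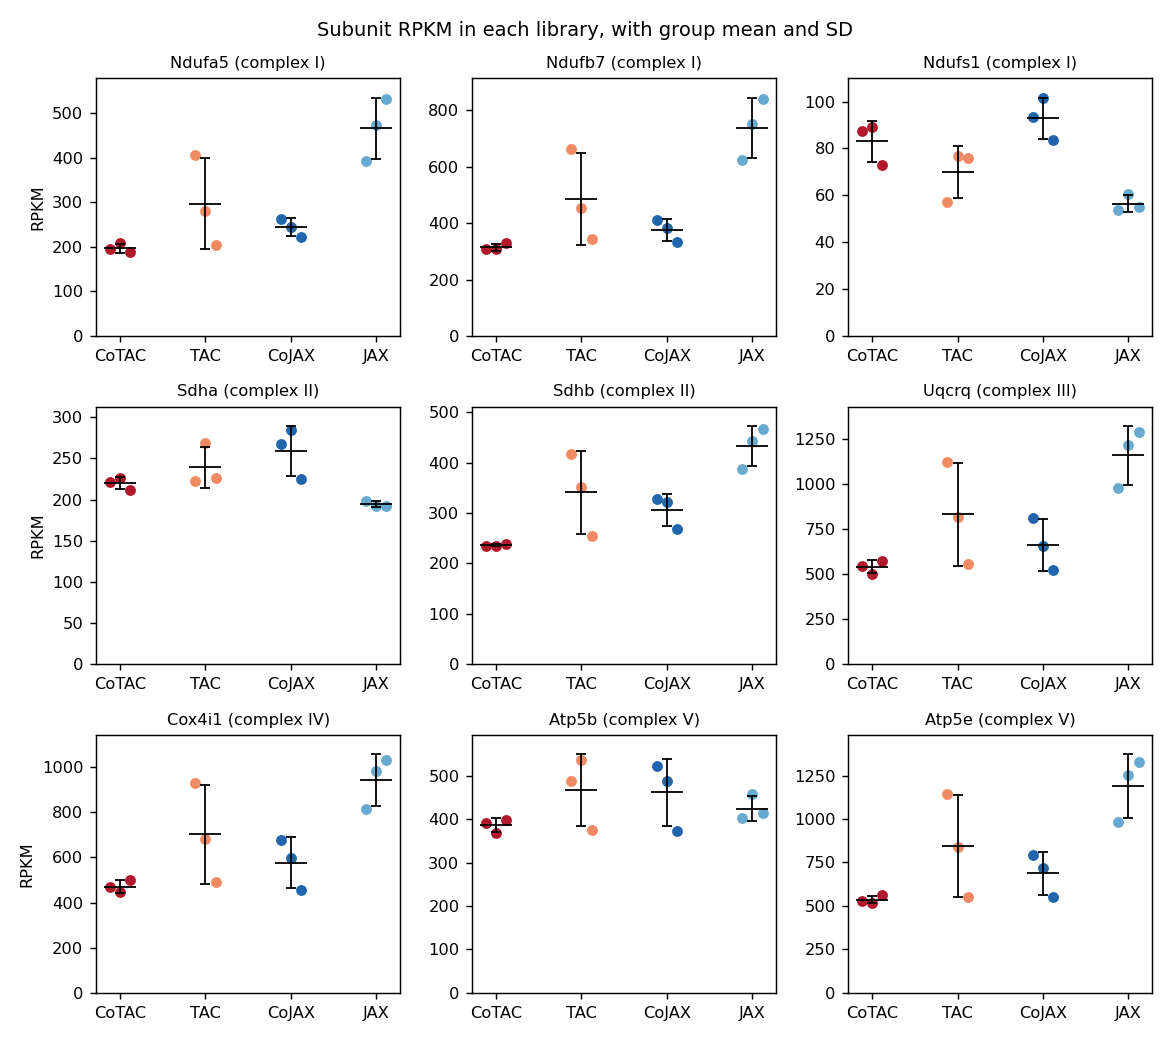
RPKM of 9 subunits (vertical axis, linear from 0) in CoTAC, TAC, CoJAX and JAX libraries. Points are libraries, and bars are the group mean and SD (n = 3). The JAX mean is the highest for 6 of the genes and the lowest for Ndufs1 and Sdha.

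The comparison of TAC with JAX livers measured the difference between the vendors when kept apart. Of 82 subunits that passed the filter on low values (at least 1 RPKM in at least 3 libraries), 2 were lower in TAC and 0 higher at an adjusted p under 0.05, from limma-trend with Benjamini-Hochberg adjustment over 12058 genes. Of all tested genes, 4.09% passed, 1.71% lower and 2.38% higher. Below an unadjusted p of 0.05 there were 49 subunits, 47 of them lower in TAC, against 26.2% of all genes and 12.7% lower. Groups did not overlap in 12 subunits that were lower in TAC and 1 that was higher. Of all 12058 tested genes, 1422 were lower and 1734 higher without overlap, so the share of subunits lower in this way was near that of all genes. The median log2 difference, on the scale of log2(RPKM + 0.5), was -0.48 over the subunits and -0.01 over all tested genes. It was -0.54 in complex I, -0.11 in complex II, -0.43 in complex III, -0.53 in complex IV and -0.45 in complex V. That of complex II turned to 0.06 under quantile normalization and to 0.02 with depth as a term in the fit, and the other 4 stayed negative.

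The first of the 2 genes that passed was Ndufs5, which encodes an accessory subunit of complex I. Ndufs5 had 254, 254 and 192 RPKM in TAC livers, against 316, 372 and 422 RPKM in JAX livers. All 3 TAC libraries were below all 3 JAX libraries. The log2 difference was -0.66 ± 0.15 (SE), with an adjusted p of 0.0378 in limma-trend. With relative depth as a term in the fit it was -0.48 ± 0.09 (adjusted p = 0.0408). Ndufb2 and Uqcr10, accessory subunits of complexes I and III, also passed in that fit, with log2 differences of -0.31 ± 0.06 (adjusted p = 0.0482) and -0.31 ± 0.06 (adjusted p = 0.037). In that fit 1.09% of all genes passed, and the median of the subunits was -0.17. Below an unadjusted p of 0.05 it held 52 subunits, against 21.6% of all genes.

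The second was Cox7a1, the isoform of subunit 7a typical of heart and skeletal muscle. The CoTAC livers held 6.97, 22.2 and 12.8 RPKM of Cox7a1 and the TAC livers 33, 24.9 and 16.6 RPKM, the CoJAX livers 29.4, 18.4 and 29.5 RPKM and the JAX livers 55.4, 98.5 and 76.8 RPKM. TAC and JAX libraries did not overlap, and JAX 2 was the highest of all 12. The log2 difference was -1.63 ± 0.37 (adjusted p = 0.0397, limma-trend), and -1.43 (adjusted p = 0.106) with depth as a term. Both calls were lost when any JAX library, TAC 2, TAC 3 or CoTAC 3 was left out, and 1 of them without CoTAC 1 or any CoJAX library, whereas without TAC 1, the shallowest TAC library, 59 subunits passed.

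The level of most other subunits differed between the TAC libraries themselves. The median of the 76 subunits above 40 RPKM was 488.9, 376.4 and 283.7 RPKM in TAC 1, TAC 2 and TAC 3, and 435.2, 530.9 and 566.9 RPKM in JAX 1, JAX 2 and JAX 3. Relative depth was 0.7943, 1.0541 and 1.754 in TAC 1, TAC 2 and TAC 3, and 1, 0.7985 and 0.7581 in JAX 1, JAX 2 and JAX 3. The median subunit value was thus lower in the deeper libraries of both groups. Ndufv1, the NADH-binding core subunit of complex I, had a log2 difference of 0.00 ± 0.12 (adjusted p = 0.99, limma-trend), and Atp5b, the catalytic beta subunit of complex V, had 0.12 ± 0.16 (adjusted p = 0.672).

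The comparison of CoJAX with JAX livers set Jackson mice housed 4 weeks with Taconic mice against Jackson mice housed with their own kind. Every JAX library was shallower than every CoJAX library, so housing and depth cannot be told apart in it. At an adjusted p under 0.05, 53 subunits were lower in CoJAX and 2 were higher. Of all tested genes, 24.1% passed, 11.5% lower and 12.7% higher. The median log2 difference was -0.69 over the subunits and -0.01 over all tested genes. Genes that passed and were lower numbered 30 of 38 tested in complex I, 1 of 4 in complex II and 4 of 8 in complex III. In complexes IV and V they numbered 8 of 15 and 10 of 17. The medians of the 5 complexes, from I to V, were -0.73, -0.18, -0.64, -0.77 and -0.64. This comparison and that of TAC with JAX share the JAX libraries.

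The largest negative differences in complex I were those of 3 accessory subunits. Ndufb7 is part of the membrane arm. Ndufb7 had 412, 382 and 333 RPKM in CoJAX livers, against 625, 750.1 and 839 RPKM in JAX livers. Its log2 difference was -0.97 ± 0.21 (adjusted p = 0.0103). Ndufa5 belongs to the arm that reaches into the matrix. Ndufa5 had 264, 245 and 223 RPKM in CoJAX livers, against 394, 473 and 532 RPKM in JAX livers. Its log2 difference was -0.93 ± 0.21 (adjusted p = 0.0117). Ndufv3 belongs to the module that binds NADH. Ndufv3 had 376, 373 and 331 RPKM in CoJAX livers, against 553, 721 and 765 RPKM in JAX livers. Its log2 difference was -0.90 ± 0.21 (adjusted p = 0.0138). In all 3 genes the highest CoJAX library was below the lowest JAX library.

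Small subunits of complexes III, IV and V had negative differences of like size. In CoJAX, Uqcrq was lower by 0.82 ± 0.25 on the log2 scale (adjusted p = 0.0328), Uqcr11 by 0.79 ± 0.23 (adjusted p = 0.0268) and Uqcr10 by 0.79 ± 0.19 (adjusted p = 0.0153, limma-trend for all). Uqcr10 had 591, 518 and 443 RPKM in CoJAX livers, against 780.2, 930.0 and 961 RPKM in JAX livers. Among complex IV genes that passed, Cox7a1 had the largest negative difference, -1.55 ± 0.37 (adjusted p = 0.0145). It was followed by Cox7c and Cox7b, which encode small subunits of the membrane part. Cox7c had 289, 252 and 201 RPKM in CoJAX livers, against 379, 444 and 472 RPKM in JAX livers. Cox7b had 235, 193 and 157 RPKM in CoJAX livers, against 293, 356 and 358 RPKM in JAX livers. The log2 difference was -0.81 ± 0.21 (adjusted p = 0.0182) for Cox7c and -0.80 ± 0.22 (adjusted p = 0.0245) for Cox7b, and neither gene had overlapping groups. In complex V, Atp5k, Atp5e and Atp5h were lower by 0.81 ± 0.24, 0.79 ± 0.25 and 0.76 ± 0.22 (adjusted p = 0.0287, 0.0364 and 0.0285). Atp5h encodes subunit d of the stalk. Atp5h had 577, 503 and 422 RPKM in CoJAX livers, against 718, 878 and 944 RPKM in JAX livers. Between CoJAX and JAX, groups did not overlap in 67 subunits that were lower and 2 that were higher, against 21.9% and 21.8% of all tested genes.

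Ndufs1 and Sdha were the 2 subunits that passed and were higher in CoJAX, and Ndufs1 is named after its values were seen. It encodes the largest core subunit of complex I, which carries iron-sulfur clusters. Ndufs1 had 87.3, 89 and 72.9 RPKM in CoTAC, 57.2, 76.6 and 76 in TAC, 93.3, 102 and 83.8 in CoJAX and 53.7, 60.6 and 55.2 in JAX livers. CoJAX and JAX libraries did not overlap, and the log2 difference was 0.71 ± 0.13 (adjusted p = 0.00675). Sdha encodes the flavoprotein of complex II that oxidises succinate. For Sdha the values were 222, 226 and 212 RPKM in CoTAC, 223, 268 and 227 RPKM in TAC, 268, 284 and 225 RPKM in CoJAX and 199, 192 and 193 RPKM in JAX livers. All CoJAX libraries were above all JAX libraries, and the log2 difference was 0.41 ± 0.12 (adjusted p = 0.0271). Sdha no longer passed without CoJAX 1, CoJAX 2 or any JAX library, while Ndufs1 passed whichever library was left out. With depth as a term in the fit neither passed, at 0.63 for Ndufs1 and 0.48 for Sdha.

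**Figure D2:**
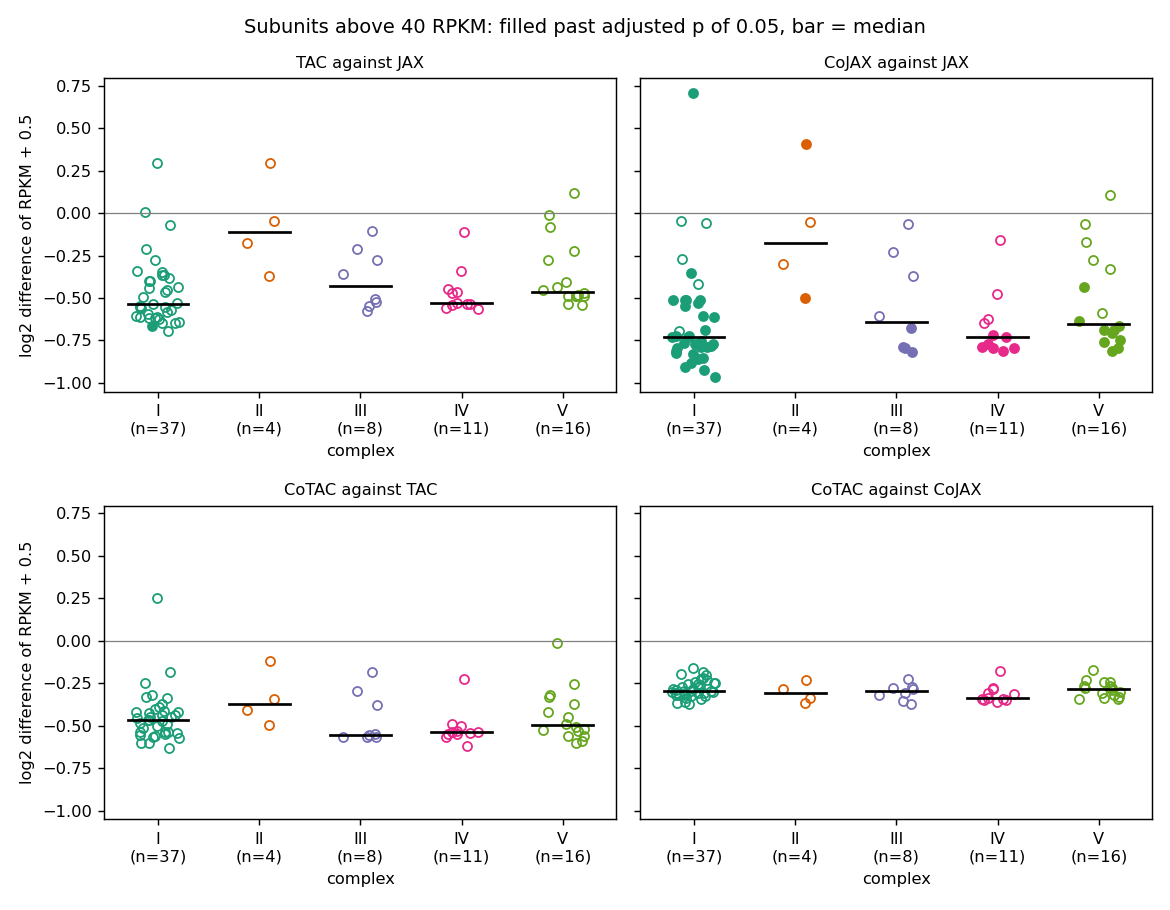
Log2 difference of RPKM + 0.5 (vertical axis) of the 76 subunits above 40 RPKM, by complex, in the 4 comparisons. Each circle is a subunit, filled where it passed an adjusted p of 0.05, and bars are medians. Of the filled circles, 1 is in TAC against JAX (Ndufs5) and the others are in CoJAX against JAX, where complex I has a median of -0.73 and complex II of -0.18.

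The 4 subunits of complex II did not share 1 direction in the comparisons with JAX livers, while all 4 had negative log2 differences in CoTAC against TAC and in CoTAC against CoJAX, except that Sdha turned positive in both under quantile normalization. Sdhb carries the iron-sulfur clusters of the complex. The CoTAC livers held 235, 236 and 239 RPKM of Sdhb and the TAC livers 417, 352 and 254 RPKM, the CoJAX livers 328, 321 and 269 RPKM and the JAX livers 388, 443 and 466 RPKM. Between CoJAX and JAX its log2 difference was -0.50 ± 0.17 (adjusted p = 0.0486), opposite in sign to that of Sdha. Sdhc and Sdhd encode the membrane anchors. Sdhc had 207, 215 and 204 RPKM in CoTAC, 316, 287 and 232 in TAC, 264, 260.1 and 239 in CoJAX and 299, 310.5 and 329.6 in JAX livers. For Sdhd the values were 198, 203 and 198 RPKM in CoTAC, 265, 273 and 222 RPKM in TAC, 283, 262 and 215 RPKM in CoJAX and 251, 246 and 289.8 RPKM in JAX livers. The JAX and CoJAX libraries overlapped in Sdhd and not in Sdhc, whose 3 JAX values were higher. Their log2 differences did not pass, at -0.30 ± 0.12 (adjusted p = 0.0927) and -0.05 ± 0.13 (adjusted p = 0.789). Within a library, the RPKM of Sdha divided by that of Sdhb was 0.945, 0.958 and 0.887 in CoTAC, 0.535, 0.762 and 0.893 in TAC, 0.817, 0.885 and 0.837 in CoJAX, and 0.512, 0.435 and 0.413 in JAX. This ratio was therefore lowest in the JAX libraries and in TAC 1, which are also the 4 shallowest libraries. The median of complex II in CoJAX against JAX turned to 0.07 under quantile normalization and to 0.04 with depth as a term.

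Libraries of greater depth had a lower median RPKM over the 76 subunits above 40 RPKM, 257.6 to 295.2 in the 5 deepest libraries and 435.2 to 566.9 in the 4 shallowest. Over these subunits, the median coefficient of variation over the 12 libraries was 31.9% in RPKM and 11.6% after multiplication by relative depth, which makes it proportional to reads per base of the transcript. It became smaller in 61 of the 76. Over all tested genes the corresponding medians were 23.6% and 41.0%, and over all genes above 40 RPKM they were 17.9% and 29.6%. The product of RPKM and depth for Atp5e was 885 to 956 in CoTAC libraries, 882 to 970 in TAC libraries, 865 to 1039 in CoJAX libraries and 981 to 1008 in JAX libraries. The 12 libraries thus spanned a narrow range in this gene, at an estimated 706 to 848 reads each. Complex II again stood apart from the others, with medians of 15.4% in RPKM and 21.8% in the product. Sdha varied by 13.2% in RPKM and 35.1% in the product, and Ndufs1 by 21.2% and 45.3%.

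**Figure D3:**
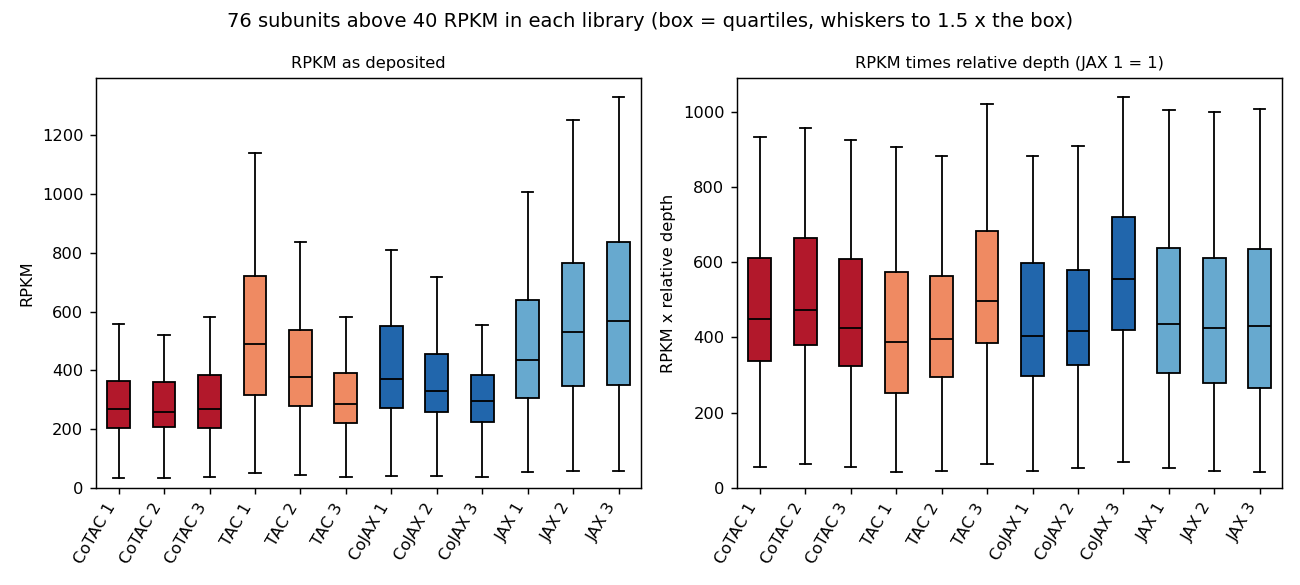
Distribution of the 76 subunits above 40 RPKM in each library, in RPKM as deposited (left) and multiplied by relative depth (right), both on linear axes from 0. Boxes are quartiles with the median, and whiskers reach 1.5 box lengths. The medians run from 257.6 to 566.9 on the left and from 388.4 to 554.5 on the right.

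The subunits were also set against a level of 2 reads per base, the most a gene would hold if each position could start 1 counted read on each strand. Whether the authors' counting set such a limit is not given in the sources used here. The level was 549.0 RPKM in CoJAX 3 and 1360.5 RPKM in JAX 3. Alb stood near it, at 511.5 RPKM in CoJAX 3 and 1151.6 RPKM in JAX 3. The median subunit above 40 RPKM stood at 37.7% to 53.8% of it in the 12 libraries, against 0.9% to 2.5% for all tested genes. Atp5k reached 145.6% of it, Atp5e 100.8% and Ndufa3 100.7%, and no other subunit exceeded it in any library. With high values corrected as if this level were a limit, 58 subunits passed between CoJAX and JAX, 3 of them higher. The correction capped each value at 0.95 of the level. Atp5k, at 115.85% to 145.57% of the level, exceeded the cap in all 12 libraries, so its corrected value was set by depth alone. Atp5e, Ndufa3, Uqcr11, Uqcrq and Cox6a1 exceeded the cap in some but not all libraries. The correction itself uses depth, so these calls are no independent check.

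Depth and housing moved together between CoJAX and JAX, since every JAX library was shallower than every CoJAX library. With depth as a term in the fit, 0 of 82 subunits passed between CoJAX and JAX in limma-trend, against 0.323% of all tested genes, and the median log2 difference of the subunits was -0.19. Below an unadjusted p of 0.05 there were 49 subunits in that fit, against 23.9% of all genes. The calls also rested on single libraries. In place of 55 subunits, 9 passed without CoJAX 2, 9 without JAX 3, 12 without JAX 2 and 13 without CoJAX 3. CoJAX 1 and JAX 1 had depths of 1.0882 and 1, near each other, though CoJAX 1 was still the deeper. In this pair, 70 of 82 subunits were lower in CoJAX 1, against 51.3% of all tested genes. The median log2 difference was -0.24, with no test, since the pair sets 1 library against 1. The part of the remaining depth difference in it was not tested.

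The difference followed the length of the transcript. Lengths were matched for 81 of the 82 tested subunits, from the shortest principal transcript of the GENCODE annotation. In CoJAX against JAX the median log2 difference was -0.77 for the 30 subunits under 600 bases, -0.72 for the 24 from 600 to 1000 bases, -0.42 for the 13 from 1000 to 1500 bases and -0.17 for the 11 from 1500 to 2500 bases. The other tested genes had medians of -0.61, -0.51, -0.3 and -0.06 in the same classes. Those of them above 40 RPKM, nearer in level to the subunits, had medians of -0.64, -0.57, -0.32 and -0.04. The 3 subunits longer than 2500 bases had a median of 0.40, against 0.15 for other genes of that class and 0.21 for those above 40 RPKM. The 3 subunits were Ndufs1, Sdha and Sdhc, and Sdhc, the longest at 3171 bases, had a log2 difference of -0.30, against the trend with length. Across the 81 subunits, which share the libraries, Spearman's correlation of length with the log2 difference was 0.58 in TAC against JAX, 0.59 in CoJAX against JAX, 0.58 in CoTAC against TAC and 0.39 in CoTAC against CoJAX, as a description. The part of length in the differences was not tested.

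**Figure D4:**
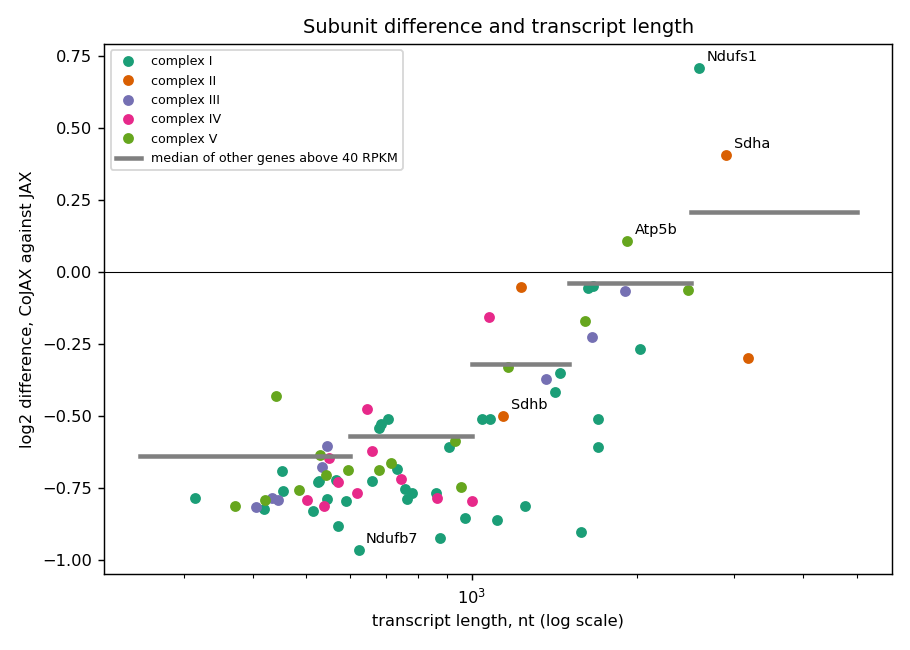
Transcript length in bases (horizontal, log scale) and log2 difference between CoJAX and JAX (vertical) of the subunits above 40 RPKM, coloured by complex. Grey bars are the medians of other genes above 40 RPKM in each length class, -0.64 below 600 bases and -0.04 from 1500 to 2500 bases. Ndufs1 at 0.71 and Sdha at 0.41 lie above the bar of their class, and Ndufb7 at -0.97 is the lowest.

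Within complexes, long and short subunits diverged in the same libraries. Ndufs1 divided by Ndufs8, which encodes another iron-sulfur subunit of complex I, was 0.373 ± 0.053 in CoTAC, 0.225 ± 0.089 in TAC, 0.338 ± 0.046 in CoJAX and 0.121 ± 0.016 in JAX (SD, n = 3). Atp5b divided by Atp5e was 0.719 ± 0.017 in CoTAC, 0.581 ± 0.134 in TAC, 0.671 ± 0.012 in CoJAX and 0.362 ± 0.049 in JAX. Uqcrc2, a core protein of complex III, divided by Uqcrq was 0.306 ± 0.040 in CoTAC, 0.238 ± 0.056 in TAC, 0.296 ± 0.047 in CoJAX and 0.176 ± 0.026 in JAX. On average, all 3 ratios were lowest in JAX and highest in CoTAC, which were also the shallowest and the deepest group by mean depth.

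CoTAC livers, from Taconic mice housed 4 weeks with Jackson mice, were compared with TAC livers. TAC 1 and TAC 2 were shallower than every CoTAC library. At an adjusted p under 0.05, 0 subunits passed in limma-trend, against 0.647% of all tested genes. Below an unadjusted p of 0.05 there were 64, 63 of them lower in CoTAC, against 24.6% of all genes and 12.6% lower. With depth as a term in the fit 11 of 82 did, against 10.8% of all genes, and the median log2 difference of the subunits moved to -0.11. The median log2 difference was -0.49 over the subunits and 0.00 over all genes, and from complex I to complex V it was -0.46, -0.37, -0.55, -0.54 and -0.49. Groups did not overlap in 45 subunits that were lower, against 12.2% of all genes. The comparison shares the TAC libraries with that of TAC and JAX.

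The smallest p was that of Ndufb10, which encodes an accessory subunit of the membrane arm of complex I. Ndufb10 had 286, 292 and 279.9 RPKM in CoTAC livers, against 551, 467 and 339 RPKM in TAC livers. The CoTAC libraries were below all TAC libraries. The log2 difference was -0.63 ± 0.17 (adjusted p = 0.0907) and did not pass. Ndufs1 had 0.25 ± 0.13 (adjusted p = 0.249) and Sdha -0.12 ± 0.12 (adjusted p = 0.544). Without TAC 3, the deepest TAC library, 67 subunits passed. In CoTAC 2 and TAC 3, with depths of 1.84 and 1.754, 71 of 82 subunits were lower in CoTAC 2, against 53.6% of all tested genes, with a median of -0.08 over the subunits and -0.08 over all genes above 40 RPKM.

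CoTAC livers were compared with CoJAX livers to measure the difference between the vendors when housed together. CoJAX 1 and CoJAX 2, at depths of 1.0882 and 1.2692, were shallower than every CoTAC library. Here 0 subunits passed in limma-trend, against 0.0663% of all tested genes, and 8 had an unadjusted p under 0.05, against 10.8%. With depth as a term 17 did, against 9.86%. The median log2 difference was -0.30 over the subunits, 0.01 over all genes, and between -0.31 and -0.28 in each of the 5 complexes. The medians of the complexes lay between -0.2 and -0.1 with depth as a term and between -0.09 and -0.01 under quantile normalization. Groups did not overlap in 48 subunits that were lower in CoTAC, against 9.94% of all genes. In CoTAC 2 and CoJAX 3, with depths of 1.84 and 1.8788, 75 of 82 subunits were lower in CoTAC 2, against 51.3% of all tested genes. The median was -0.10 over the subunits and -0.08 over all genes above 40 RPKM.

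Atp5s, whose product is not a structural part of complex V, had the smallest p. The CoTAC livers held 11, 11.8 and 8.18 RPKM of Atp5s and the TAC livers 8.64, 6.85 and 5.97 RPKM, the CoJAX livers 5.31, 7.11 and 6.73 RPKM and the JAX livers 9.03, 7.69 and 7.62 RPKM. The CoTAC libraries were above all CoJAX libraries, and the log2 difference was 0.65 ± 0.19 (adjusted p = 0.269). The gene was the only subunit by symbol that was higher in every CoTAC library than in every CoJAX library, against 9.07% of all tested genes.

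The vendor difference when housed together minus that when housed apart, the interaction, was tested for each subunit. None of the 82 passed in limma-trend, and 0% of all genes did, while 3 subunits had an unadjusted p under 0.05, against 11.3% of all. With depth as a term 19 did, against 13.7% of all, and again 0 subunits passed. The 3 were Sdha with a log2 interaction of -0.52 ± 0.16 (adjusted p = 0.297), Atp5s with 0.83 ± 0.26 (adjusted p = 0.298) and Ndufs1 with -0.46 ± 0.19 (adjusted p = 0.392). The median over the subunits was 0.19, and it was -0.20 in complex II.

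Tissue-specific isoforms were low beside their widely expressed partners. Cox4i2, Cox7b2 and Cox8c, typical of lung or testis, did not pass the filter. Cox7b2 and Cox8c were listed at 0 in every library, and Cox4i2 at no more than 0.97 RPKM. The testis isoform Cox6b2 was listed at 0 to 3.66 RPKM, against 406.9 to 975.3 RPKM for Cox6b1. Ndufa4l2, a relative of Ndufa4 known to be induced by low oxygen, was listed at 1.66 to 8.99 RPKM. Cox7a2, the partner of Cox7a1, was listed at 203.4 to 459.1 RPKM, and Cox8a at 402.8 to 919.1 RPKM. The log2 difference of Cox7a2 in CoJAX against JAX was -0.62 ± 0.22 (adjusted p = 0.0567). The log2 difference of Cox8a in CoJAX against JAX was -0.65 ± 0.22 (adjusted p = 0.0534). Cox7a2l was listed at 178.4 to 243.7 RPKM, with a log2 difference of -0.16 ± 0.11 (adjusted p = 0.337) in CoJAX against JAX.

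The muscle isoforms of complex IV were highest in 1 JAX library. Cox8b had 0, 0 and 0 RPKM in CoTAC, 0, 0 and 3.38 in TAC, 0, 0 and 0 in CoJAX and 0, 33.5 and 3.92 in JAX livers. Cox8b was thus listed at 0 in 9 libraries, and JAX 2 alone exceeded 5 RPKM. Cox6a2, the muscle isoform of subunit 6a, was listed at 8.97 RPKM in JAX 2 and at no more than 1.29 RPKM elsewhere. Both passed the low-value filter and neither passed the test in CoJAX against JAX, with adjusted p of 0.0782 for Cox8b and 0.207 for Cox6a2. No fold is given for Cox8b, which was listed at 0 in all CoJAX libraries, and Cox6a2 had a log2 difference of -1.60 ± 0.89.

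The same library held muscle transcripts. Of 10 muscle markers, Ckm (muscle creatine kinase) at 20.1 RPKM, Acta1 (skeletal actin) at 36.8 RPKM, Tnnt3 (fast skeletal troponin T) at 34.7 RPKM, Mb (myoglobin) at 27.3 RPKM and Ckmt2 at 4.07 RPKM were found in JAX 2. Elsewhere Acta1 was listed at no more than 0.2 RPKM and the other 4 at 0. The sum of the 10 markers was 158 RPKM in JAX 2 and 1.6 to 13.4 RPKM in the other 11 libraries, with Myh6 at 0 in all. Of the 6 fat markers, the sum was 0 to 0.7 RPKM. Without JAX 2 the log2 difference of Cox7a1 was -1.43 in TAC against JAX and -1.36 in CoJAX against JAX, and neither passed. JAX 1 and JAX 3, in which the 5 muscle markers named were listed at 0, held 55.4 and 76.8 RPKM of Cox7a1, above every CoTAC, TAC and CoJAX library. Their sums of the 10 markers, 13.4 RPKM in JAX 1 and 7.4 RPKM in JAX 3, were the highest after JAX 2. Among the other markers, Mylpf was listed at 5.9 RPKM in JAX 1 and 5.56 RPKM in JAX 3, and Tnnt2 at 7.04 RPKM in JAX 1. The part of muscle RNA in the Cox7a1 values was not tested. In bulk tissue, fewer cells of a type and less RNA per cell cannot be told apart.

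**Figure D5:**
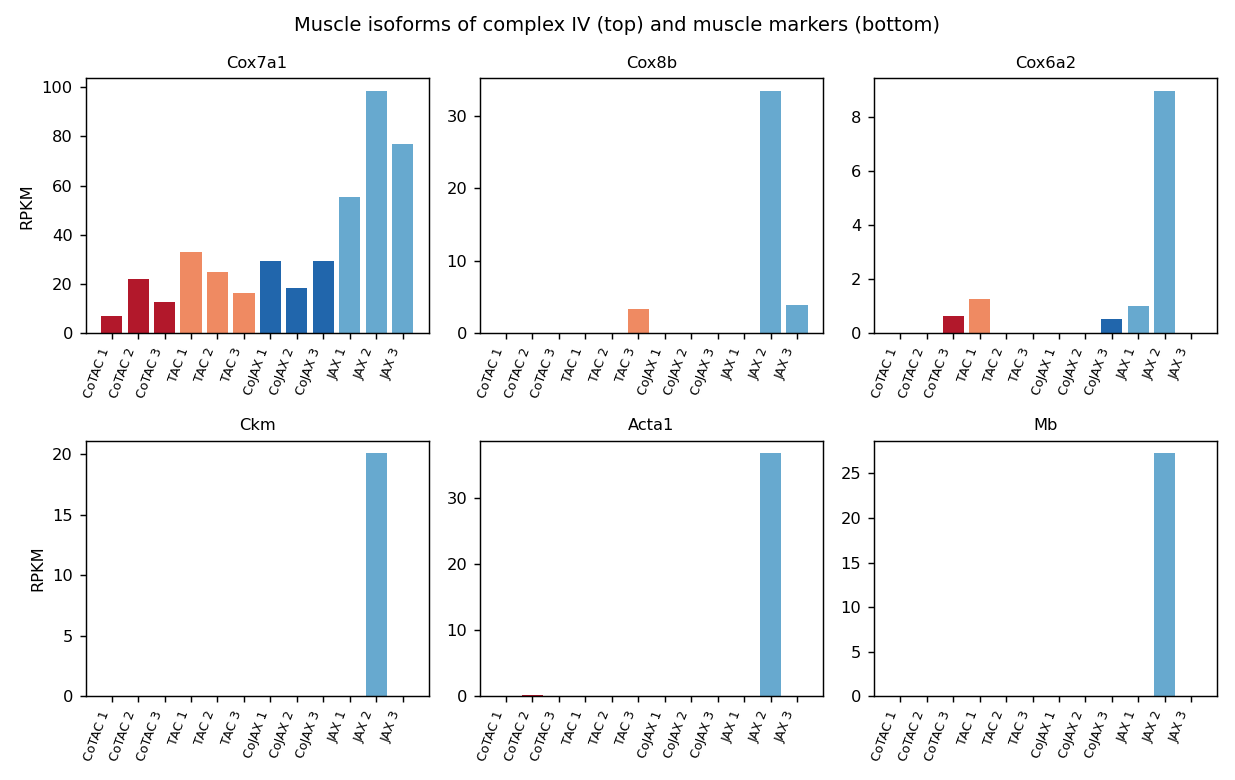
RPKM (vertical axes, linear from 0) of the muscle isoforms Cox7a1, Cox8b and Cox6a2 (top) and the muscle markers Ckm, Acta1 and Mb (bottom) in each of the 12 libraries. JAX 2 has the highest bar in all 6 panels, with 98.5 RPKM of Cox7a1 and 20.1 RPKM of Ckm.

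The 3 genes Atp5g1, Atp5g2 and Atp5g3 encode the same mature protein, subunit c of the ring of complex V. For Atp5g1 the values were 261, 236 and 259 RPKM in CoTAC, 489, 372 and 264 RPKM in TAC, 363, 318 and 271 RPKM in CoJAX and 427, 541 and 568 RPKM in JAX livers. The CoTAC livers held 289.7, 299 and 282 RPKM of Atp5g2 and the TAC livers 449.8, 397 and 330.1 RPKM, the CoJAX livers 387, 364 and 303 RPKM and the JAX livers 422, 482 and 517 RPKM. Atp5g3 had 433, 426 and 427 RPKM in CoTAC, 839.6, 623 and 444 in TAC, 636, 572 and 429 in CoJAX and 737, 905 and 929 in JAX livers. Atp5g3 was the highest of the 3 in every library. The ratio of Atp5g1 to Atp5g3 was 0.587 ± 0.029 in CoTAC, 0.592 ± 0.008 in TAC, 0.586 ± 0.040 in CoJAX and 0.596 ± 0.016 in JAX (SD, n = 3), and the ranges of the 4 groups overlapped. Subunit c genes and many other subunit genes have processed pseudogenes of near-identical sequence, so their counts are uncertain where reads could be shared.

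Other genes of the pathway were described from lists. As every JAX library was shallower than every CoJAX library, housing and depth cannot be told apart in that comparison for any of the lists. With depth as a term in the fit, 0.323% of all tested genes passed in it, and the lists are described without that term. Of 12 nuclear regulators tested, 2 were higher and 0 lower in CoJAX than in JAX, with a median log2 difference of 0.21. Of all tested genes, 12.7% were higher and 11.5% lower in this comparison, and the count of 2 of 12 is near that share. The 2 were Gabpa, the DNA-binding part of GABP, and Yy1. Gabpa had 15.3, 19.1 and 16.7 RPKM in CoJAX livers, against 11.8, 11.5 and 10.9 RPKM in JAX livers. Yy1 had 45.1, 56.8 and 47 RPKM in CoJAX livers, against 38.4, 35.2 and 43.7 RPKM in JAX livers. Neither group pair overlapped, and the log2 difference was 0.56 ± 0.13 (adjusted p = 0.0125) for Gabpa and 0.34 ± 0.11 (adjusted p = 0.0464) for Yy1. Ppargc1a, the coactivator that raises mitochondrial gene expression, had 2.91, 5.52 and 4.16 RPKM in CoJAX, against 2.36, 3.51 and 4.28 RPKM in JAX livers, and the groups overlapped.

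Of 38 assembly factors, 6 were higher and 9 lower in CoJAX than in JAX, with a median of -0.17, against the same 12.7% higher and 11.5% lower of all tested genes. Cox17 and Cox19, copper-handling factors of complex IV, were lower, with log2 differences of -0.90 ± 0.20 (adjusted p = 0.0108) and -0.77 ± 0.15 (adjusted p = 0.00688). Cox15, which makes heme a for complex IV, and Lrpprc, which stabilises mitochondrial mRNA, were higher, with 0.91 ± 0.21 (adjusted p = 0.0125) and 0.51 ± 0.14 (adjusted p = 0.0219). Cycs, which encodes cytochrome c, was lower, with a log2 difference of -0.64 ± 0.20 (adjusted p = 0.0356), while Cyc1 did not pass. Of 14 genes of the citric acid cycle, 4 were higher (Ogdh, Dlst, Dld and Sucla2) and 0 lower, against 12.7% and 11.5% of all tested genes, with a median of -0.01. Of 4 carriers and uncoupling proteins that passed the filter, 1 was lower, the ADP and ATP carrier isoform Slc25a4, at -0.96 ± 0.29 (adjusted p = 0.0348), and JAX 2 held its highest value, 28.4 RPKM. In the other 3 comparisons and in the interaction, 0 of the 70 tested genes of these 5 lists passed in limma-trend. Below an unadjusted p of 0.05 there were 19 in TAC against JAX, 17 in CoTAC against TAC, 7 in CoTAC against CoJAX and 3 in the interaction. The shares of all tested genes were 26.2%, 24.6%, 10.8% and 11.3% in the same order, so the first 3 counts are near the background and the last is below it.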

How the data were processed

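Poly(A) RNA of 12 mouse liver samples was sequenced from ThruPLEX libraries, per the labels' protocols. The authors deposited 1 table of RPKM with a column per library, whose name gives the unit. The submitters' processing notes list Bowtie 1.0.0, Cuffdiff 2.1.1 and mm9, with no role for each. The annotation, strand and duplicate handling are not given in sources used here. Reads of genes that overlap, antisense genes included, therefore cannot be separated. Of 23936 lines, 27 carried a date number in place of a symbol and were left out. Value columns with no sample numbered 0.

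From the RPKM, log2(RPKM + 0.5) was computed, which understates changes of low genes. The 12058 genes that reached 1 RPKM in 3 or more libraries entered 1 limma-trend model (limma 3.58.1, R 4.3.3) of the 4 groups, two-sided, with Benjamini-Hochberg adjustment over these genes and a threshold of 0.05. An exact permutation test of 3 libraries against 3 cannot go below 0.1. The fit was also run on simulated data with independent noise for each gene. That simulation held no depth effect shared between genes, so it cannot speak to calls that depth may shift. Relative depth came from the ratio of low values (under 0.6 RPKM) between libraries, where 1 read is the smallest step, and numbers of reads are estimates that rest on annotated lengths of another build. Replicate numbers in the titles share only a number between groups.

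Members and lists were chosen with earlier results of these data known, so no list was tested as a whole. Values per library are given for the 2 most abundant genes of each complex, for up to 3 genes per complex and comparison that passed, taken by size of change (or the 1 with the smallest p), for isoform families and for the Sdh genes. Ndufs1 and the genes used in ratios were added after their values were seen. Alternatives were another pseudocount, no filter, median-ratio or quantile scaling, depth as a term, a correction of high values for an assumed limit of 2 reads per base, a replicate block, each library left out and, chosen after seeing the data, pairs of libraries of like depth. In the correction, values were capped at 0.95 of the assumed limit. Promoters came from RefSeq (GRCm38.p6), and gene coordinates of mm9 were not used here. Transcript lengths came from GENCODE.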

Additional observations from a re-analysis of the deposited data

How the results depend on the processing

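None of the 57 subunit differences that passed turned its direction under any alternative tried, nor did the median over the subunits in the 4 comparisons of groups. Between TAC and JAX, where 2 subunits passed, 0 passed with no filter, 11 under quantile normalization (1 of them higher) and 17 with high values corrected, and 0 to 59 with 1 library left out. Between CoJAX and JAX, where 55 passed, 35 passed with no filter, 0 with depth as a term, and 9 to 65 with 1 library left out. Between CoTAC and TAC, where 0 passed, 1 passed with high values corrected, and 0 to 67 with 1 library left out. Between CoTAC and CoJAX and in the interaction, 0 passed under every alternative. Of the 55, 48 were among the 51 that passed under quantile normalization and 53 among the 58 with high values corrected. The cause of these shifts was not tested.

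The median log2 difference of the subunits moved under quantile normalization to -0.17 between TAC and JAX, to -0.24 between CoJAX and JAX, to -0.09 between CoTAC and TAC and to -0.04 between CoTAC and CoJAX. With depth as a term it moved to -0.17, -0.19 and -0.11 in the first 3 of these and was -0.11 in the last. In pairs of libraries of like depth it was -0.25 between TAC 2 and JAX 1, -0.11 between TAC 1 and JAX 2, -0.24 between CoJAX 1 and JAX 1, -0.08 between CoTAC 2 and TAC 3, and -0.10 between CoTAC 2 and CoJAX 3. Over all genes above 40 RPKM the medians of these pairs were 0.01, 0.02, 0.0, -0.08 and -0.08 in the same order. TAC 2 and CoJAX 1 were still deeper than JAX 1, and CoTAC 2 was deeper than TAC 3. The part of these remaining depth differences was not tested. With 1 library left out the median of the subunits ran from -0.71 to -0.25 between TAC and JAX and from -0.80 to -0.58 between CoJAX and JAX. It ran from -0.70 to -0.29 between CoTAC and TAC and from -0.40 to -0.20 between CoTAC and CoJAX. The library medians had a pooled SD of 0.234 within groups.

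Samples with the same replicate number did not deviate together (correlations of -0.17 to 0.15). With the replicate number as a block, 0 subunits passed between TAC and JAX, 41 between CoJAX and JAX, and 0 in the other comparisons and the interaction, and the medians stayed at -0.48, -0.69, -0.49 and -0.30.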
